A study of Mus musculus with 11 samples.

Results

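Conventional type 1 dendritic cells (cDC1) of the mouse lung were taken as 669 of the 69267 cell barcodes that passed the quality filter (0.966%), in 11 droplet-based 3′ single-cell RNA libraries of dissociated lung. A barcode passed with 1000 to 30000 UMIs (unique molecular identifiers, each standing for 1 captured RNA molecule) and at most 14% mitochondrial UMIs. It counted as cDC1 with 2 or more UMIs of Xcr1 and Clec9a together, no Cd3e or Cd79a UMI, and at most 2 UMIs of Ccl22 and Fscn1 together. The choice therefore used measured RNA, and the levels of these 6 genes in the cells are not a result. Of 81983 deposited barcodes, 49 met the gene conditions with more than 30000 UMIs and 14 failed the lower UMI or mitochondrial limit, and none of these was counted.

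The libraries came from 4 genotypes at the p21 locus, the gene Cdkn1a. The genotype wild type (+/+) had 1 library (WT), p21 heterozygotes (+/-) had 3 (p21Het), p21 mTert (+/mTert) had 5 (p21mTert), and p21 mTertCD (+/mTertCD) had 2 (p21mTertCD). All 3 groups other than WT carry 1 altered p21 allele, and the study's title places mTert induction in p21-positive cells. The labels give an age of 18 months for 9 libraries, 19 months for p21Het_1 and 20 months for p21mTert_1. WT_1, p21Het_1 and p21mTert_1 form a first deposit and the other 8 libraries a later one. The labels do not say whether libraries of a group came from separate animals, so the p-values measure only the spread between these libraries, which may be technical. WT, with 1 library, entered no test between genotypes.

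cDC1 are a small dendritic cell lineage that depends on the transcription factors IRF8, BATF3 and ID2. They take up material from dying cells, with the receptor CLEC9A among the sensors used, and present it on MHC class I to CD8 T cells, a route called cross-presentation. The chemokine receptor XCR1 lets T and NK cells that release XCL1 draw them near, and in the lung many of them carry the integrin CD103 and sit close to the airway lining. After activation they mature, switch on CCR7 and costimulatory genes, and leave for the draining lymph node.

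The libraries held 42038434 to 85988955 UMIs each. WT had 30 cDC1, the p21Het libraries 44, 154 and 61, the p21mTert libraries 44, 46, 55, 59 and 38, and the p21mTertCD libraries 66 and 72, in order of replicate. Summed cDC1 UMIs ran from 440235 in WT_1 to 2393809 in p21Het_2. The median cDC1 had 16491 UMIs. Between 4 and 20 passing barcodes were shared by any pair of libraries over the 55 pairs, and no cDC1 barcode was.

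Marker genes outside the rule were found in most cells of the gate, though not evenly. Irf8, the lineage factor, had at least 1 UMI in 644 of the 669 cells (96.3%). Itgae (CD103), Wdfy4 (a cross-presentation factor), Cadm1 (an adhesion molecule of the lineage) and Tlr3 (a receptor for double-stranded RNA) served as a joint check. At least 2 of these 4 genes were seen in 78.8% of the gated cells, against 8.42% of 463 gated cDC2 and 16.5% of 230 gated mature dendritic cells. The share rose with the number of Xcr1 and Clec9a UMIs, from 30.6% of the 111 cells with 2, through 60.8% of the 125 cells with 3 to 4 and 90.9% of the 176 cells with 5 to 9, to 100% of the 257 cells with 10 or more. Just outside the gate, the 532 cells with 1 UMI stood at 13.7%. Depth moved with it, and its part was not tested. The median cell had 12830 UMIs at 2 UMIs of the gate genes and 19530 at 10 or more.

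The cells at the low end of the gate also carried RNA of other types. Over the 236 cells with 2 to 4 gate UMIs, 34 had more than 0.3% of their UMIs in markers of plasmacytoid dendritic cells, 33 in those of alveolar macrophages and 16 in those of monocytes. Over the 433 cells with 5 or more, those counts were 1, 2 and 2. Siglech, a plasmacytoid surface lectin, stood at 397 counts per 1000000 UMIs (CPM) in the cells with 3 to 4 gate UMIs and 9.89 CPM in those with 10 or more. Ly6c2, a monocyte antigen also found on plasmacytoid cells, went from 448 to 5.93 CPM over the same bins, and Chil3, abundant in alveolar macrophages, from 1426 to 215 CPM. Itgae went the other way, from 161 to 386 CPM. For several results below, values are also given for a gate of 5 or more UMIs, chosen after these values were seen. The share of gated cells that reached 5 UMIs was 43.3% in WT, 47.7%, 66.9% and 63.9% for p21Het, 59.1%, 56.5%, 72.7%, 67.8% and 63.2% for p21mTert, and 75.8% and 70.8% for p21mTertCD, and both p21mTertCD libraries were above all others but p21mTert_3.

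**Figure D1:**
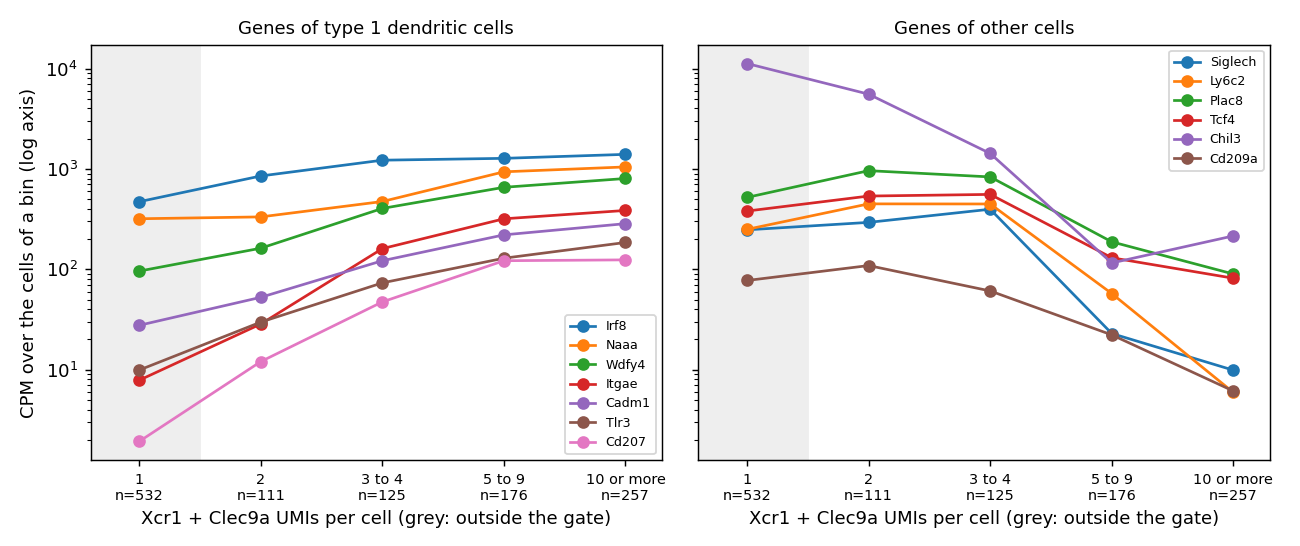
Level of marker genes in CPM (log axis) against the number of Xcr1 and Clec9a UMIs per cell, with UMIs summed over all cells of a bin and the bin outside the gate in grey. Itgae rose from 28.5 CPM at 2 UMIs to 386 CPM at 10 or more, while Siglech fell from 294 to 9.89 CPM.

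Other foreign RNA sat in few libraries. WT_1 held 10970 CPM of the 4 alveolar type 2 cell markers in its cDC1, against 178 to 898 CPM elsewhere, and p21mTert_5 held 6344 CPM of the 3 globin genes, against 29.5 to 2783 CPM elsewhere. Over the whole gate, 117 cells had more than 0.3% of their UMIs in any 1 of the other-type lists. Ncr1, which marks NK cells, and Fcnb, of monocytes, were at 0 in every library, but the other members of their lists were not. The NK list as a whole stood at 2.26 to 8.46 CPM and the monocyte list at 153 to 502 CPM over the libraries.

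cDC1 made up 0.549% of passing barcodes in WT, 0.708%, 1.81% and 1.04% for p21Het, 0.707%, 0.611%, 0.871%, 0.942% and 0.805% for p21mTert, and 1.01% and 1.29% for p21mTertCD. Every p21mTert library lay below both p21mTertCD libraries, while the p21Het libraries overlapped both groups. The mean was 0.787% ± 0.131 (SD, n = 5) for p21mTert, against 1.15% ± 0.198 (SD, n = 2) for p21mTertCD, a difference of -0.359 percentage points (2-sided exact permutation p = 0.0476, the smallest this design can give; adjusted p = 0.321 over 9 share tests). In p21Het the mean was 1.18% ± 0.564 (SD, n = 3), and the difference of p21mTert from it was -0.397 points (exact permutation p = 0.107, adjusted p = 0.321). The difference of p21mTertCD from p21Het was -0.0385 points (exact permutation p = 0.9, with 0.1 the smallest possible). No difference passed after adjustment. Without p21Het_2, the library with the most cDC1, the p21mTert difference from p21Het was -0.0865 points. Without p21Het_1 it was -0.636 points (exact permutation p = 0.0476), and in the later deposit alone it was -0.616 points (exact permutation p = 0.0667, the smallest possible there). In that deposit p21mTert minus p21mTertCD was -0.339 points, at the same p. With 5 or more gate UMIs the p21mTert difference from p21Het was -0.228 points (exact permutation p = 0.321). The first deposit has 1 library per group and gives no test.

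**Figure D2:**
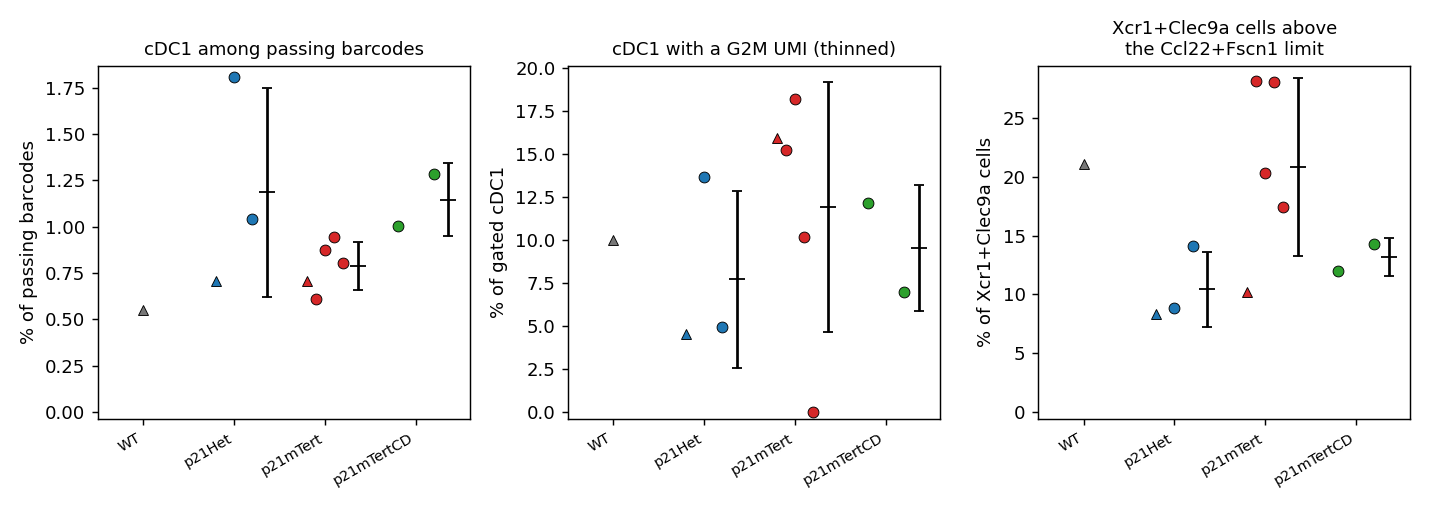
The 3 shares per library by genotype: cDC1 as a percent of passing barcodes, percent of cDC1 with a G2M UMI after thinning, and percent of Xcr1 and Clec9a cells above the Ccl22 and Fscn1 limit. Triangles are the first deposit, circles the later one, bars the mean ± SD; in the first panel the 5 p21mTert libraries lie from 0.611% to 0.942% and both p21mTertCD libraries at 1.01% and 1.29%.

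The cDC1 were next set against conventional type 2 dendritic cells (cDC2), gated in the same libraries by 2 or more Cd209a UMIs and no Xcr1 or Clec9a UMI, and UMIs were summed per library and class. This gate also held RNA of other cells, with 127 of its 463 cells (27.4%) above 0.3% of another type, 52 of them for the monocyte list and 20 for the alveolar macrophage list. Conventional dendritic cells of this second kind present mainly on MHC class II and depend on IRF4. With the library as a block over 11 libraries, 5852 genes were tested. A call needed an adjusted p under 0.05 by edgeR's quasi-likelihood test and at least a 2-fold difference, and 240 genes were called higher in cDC1 (4.1%) and 302 lower (5.16%), 9.26% in either direction. The gates set what the classes are, so these calls describe how the gated cells differ. Genes of the gates were not counted.

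Genes of the cDC1 identity list were mostly higher. Of its 44 genes 33 were tested, and 25 were called higher and 0 lower, beside 4.1% and 5.16% of all tested genes. The 25 include Tlr3 and Gcsam, which passed the filter on low counts only through cDC1, so their calls were partly set by the filter. The median log2 difference was 2.26 against 0.01 over all genes tested. These genes are known marks of the lineage, listed with earlier results of these cells in view. Of the 24 genes of the cDC2 identity list 22 were tested, with a median of -2.05. In cDC1 14 of them were called lower and 1, Epcam, higher, beside the same shares of all tested genes. Epcam, an adhesion molecule of epithelium and of some dendritic cells, had a median of 82.3 CPM in cDC1 and 21.7 CPM in cDC2.

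Among transcription factors, Irf8 and Id2 were called higher in cDC1 and Batf3 was not called. Irf8 ran from 996 to 1577 CPM in cDC1, with a median of 1242, and from 54.3 to 292 CPM in cDC2, with a median of 233. The ranges were apart, and the log2 difference was 2.80 (SE 0.187, edgeR adjusted p = 4.22e-09). Id2, an inhibitor of E-protein factors, ran from 628 to 1115 CPM in cDC1 and from 93.7 to 332 CPM in cDC2 (log2 difference 2.49, SE 0.129). Batf3, the partner that sustains Irf8, had medians of 102 and 67.9 CPM, and its log2 difference of 0.78 was below the 2-fold limit (edgeR adjusted p = 0.000233). Mycl, a Myc family factor of dendritic cells, was 2.44 higher and Ahr, a ligand-activated receptor for aromatic compounds, 1.16 higher on the log2 scale. Irf4 and Zeb2, which favour other dendritic and monocyte fates, were called lower, by log2 differences of -2.39 and -1.93. In total 4 of 30 tested factors were called higher and 4 lower, beside 4.1% and 5.16% of all tested genes. The others were Batf and Cebpb on the lower side.

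Several surface receptors and adhesion molecules differed widely. Tlr3 ran from 86.5 to 170 CPM in cDC1 and from 0 to 5.68 CPM in cDC2 (log2 difference 6.07, SE 0.25). It passed the filter on low counts only through cDC1, so no p-value is given for it. Itgae ran from 139 to 383 CPM against 0 to 24.7 CPM (5.95, SE 0.301), and Cadm1 from 178 to 253 CPM against 2.94 to 15.8 CPM (4.80, SE 0.174). Neither pair of ranges overlapped. Btla, an inhibitory receptor, was 2.55 higher and Ly75, the endocytic receptor DEC-205, 3.62 higher on the log2 scale. Gcsam, a signalling adaptor first known from germinal centres, had 840 UMIs in cDC1 and 0 in cDC2 over the 11 libraries, at least 160.8-fold higher against a floor of 3 UMIs over the group. Cd207 (langerin), a lectin that marks mucosal cDC1 in several organs, ran from 9.09 to 173 CPM in cDC1, with a median of 92.2, and was at most 10.5 CPM in cDC2. Cd207 and Snx22, a sorting nexin at 8.78 to 32.5 CPM in cDC1 and listed at 0 in cDC2 of all 11 libraries, did not pass the filter on low counts and have no test. Sept3, a septin, ran from 102 to 323 CPM in cDC1 and from 0 to 36.1 CPM in cDC2 (4.41), Cldn1, a tight junction protein, from 90.9 to 254 CPM against 0 to 36.5 CPM (3.89), and Dnase1l3, a secreted nuclease, from 45.1 to 180.3 CPM against 0 to 39.0 CPM (3.89). The same direction in every library was a condition for naming these 3. On the other side, the monocyte-drawing chemokine Ccl7 had medians of 3.02 CPM in cDC1 and 272 CPM in cDC2 (-5.86), and Mmp12, a macrophage elastase, 2.71 and 162 CPM (-4.57). Tmem176a and Tmem176b, related membrane proteins of myeloid cells, were lower by log2 differences of -4.41 and -4.32. Also, Itgam (CD11b) had medians of 12.7 CPM in cDC1 and 166 CPM in cDC2, and Clec10a, a galactose-binding lectin, 21.1 and 370 CPM.

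**Figure D3:**
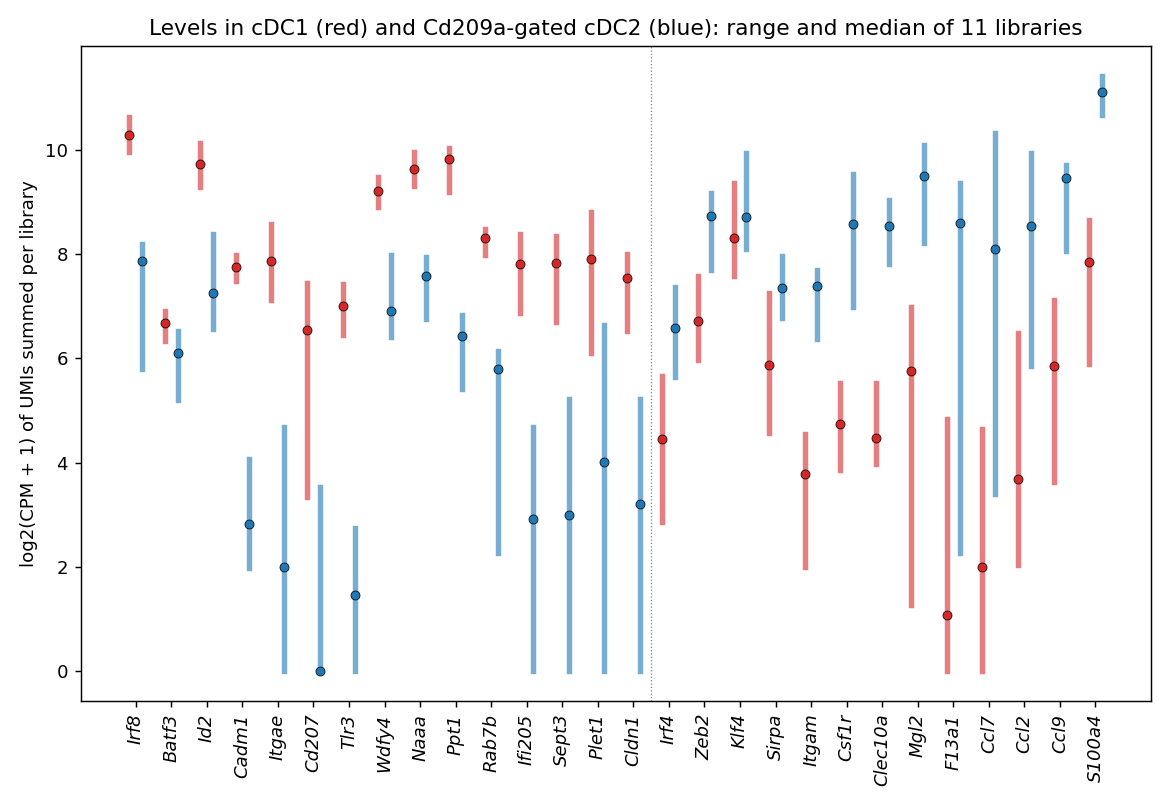
Range and median of log2(CPM + 1) over 11 libraries for 28 genes in cDC1 (red) and cDC2 (blue). The ranges of Irf8, Id2, Tlr3, Itgae and Cadm1 are apart.

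In the MHC class II list 2 of 14 tested genes were called higher and 1 lower, against 9.26% of all genes called in either direction. H2-Aa, a class II alpha chain, had medians of 6561 CPM in cDC1 and 6999 CPM in cDC2 (log2 difference 0.00, SE 0.0823, edgeR adjusted p = 0.979), and Cd74, the invariant chain, differed by 0.04 (SE 0.0891). H2-Ob, part of the H2-O modulator of peptide loading, was 1.19 higher. Cst3, an inhibitor of cysteine proteases, ran from 14320 to 25850 CPM in cDC1 and from 3651 to 6508 CPM in cDC2 (2.06, SE 0.112). Lgmn, a lysosomal protease, was lower by a log2 difference of -1.92.

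For cross-presentation and MHC class I, 6 of 31 tested genes were called higher and 2 lower, beside 4.1% and 5.16% of all tested genes. Psmb9, an immunoproteasome subunit, ran from 300.3 to 468 CPM in cDC1 and from 88.5 to 210 CPM in cDC2 (log2 difference 1.68, SE 0.0866). Tap2, a subunit of the peptide transporter, was 1.03 higher, H2-Q7, a nonclassical class I gene with close paralogs whose reads may be shared, 1.06 higher, and Wdfy4 2.22 higher. Rab7b and Rab43, small GTPases of vesicle traffic, were 2.84 and 1.03 higher. H2-K1, a classical class I heavy chain, had a log2 difference of -0.09 and was not called (edgeR adjusted p = 0.288). Cybb, the core of the phagocyte oxidase, and Rac2, a GTPase that directs it, were called lower, by log2 differences of -1.15 and -1.14. Lysosomal Ppt1, a thioesterase, ran from 580 to 1043 CPM in cDC1 and from 41.9 to 114 CPM in cDC2, and Naaa, a lysosomal amidase, from 634 to 996 CPM against 106 to 246 CPM.

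The sensing, chemokine and interferon lists are given by their calls, beside 4.1% of all tested genes called higher and 5.16% lower. Of 16 tested sensing genes only Tlr3 was called higher, and it passed the filter on low counts only through cDC1. Ifih1 (a cytosolic RNA sensor), Nlrp3 (an inflammasome sensor) and Syk (a kinase of lectin receptors) were called lower. Of 25 tested chemokine and cytokine genes, Cxcr3, Cxcl16 and Il18 were called higher and 7 lower. Cxcr3, a receptor for interferon-induced chemokines, had medians of 29.7 CPM in cDC1 and 3.79 CPM in cDC2 (log2 difference 2.90, SE 0.271). Il1b had medians of 299 and 1027 CPM (-1.67, SE 0.205), and Cx3cr1, the fractalkine receptor, 19.4 and 150 CPM (-2.66, SE 0.279). The 4 other genes with lower calls beside Il1b, Cx3cr1 and Tnf were the chemokines Ccl2, Ccl3, Ccl9 and Cxcl2. Of 17 tested interferon-stimulated genes, Ifi205 and Ifi211 of the AIM2-like family were called higher and 7 lower. Among the lower ones were Isg15, Ifitm3, and Ifi204 and Ifi207 of that same family. Ifi205 ran from 116 to 333 CPM in cDC1 and from 0 to 24.6 CPM in cDC2 (log2 difference 4.84, SE 0.253).

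RNA of other cells differed between the gates as well. Of the 3 tested genes of the alveolar macrophage list, Chil3 (log2 difference 3.48) was called higher in cDC1 and Mrc1 (-2.45) lower. Both tested neutrophil genes, S100a8 (1.68) and S100a9 (1.44), were called higher. All 3 complement genes of the interstitial macrophage list were called lower, C1qa by -4.73, as were 2 of 3 tested monocyte genes, F13a1 by -6.28. When the cells above 0.3% of another type were left out of both classes, which was added after the data were seen, 9 libraries kept at least 20 cells of each class, and 500 of 4831 tested genes were called, 233 of them higher. The genes Chil3, Mrc1, S100a8, S100a9, C1qa and F13a1 belong to the lists by which these cells were left out. A loss of their calls was therefore partly set in advance. Chil3 (0.12) and S100a9 (-0.30) were then not called, while S100a8, C1qa, F13a1 and Ccl7 did not pass the filter on low counts. Not every such difference shrank: Mrc1 was still called lower, by -5.28 against -2.45 before. Mmp12 was also still called lower, by -5.825 against -4.57 before. In that fit Irf8 was 4.26, Tlr3 6.39, Itgae 5.72 and Cadm1 5.25 higher, and Ccl2 was lower by a log2 difference of -2.46 against -4.27 before. In the cDC1 identity list 24 of 32 tested genes were then higher and 2 lower, with a median of 2.41, and in the cDC2 identity list 2 of 22 were higher and 16 lower, with a median of -2.78. With only the cDC1 side held to 5 or more gate UMIs, 694 genes were called against 542, of which 285 were higher, and with the cells above 0.3% of another type left out of the cDC1 side alone 613 were called, of which 244 were higher.

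Cdkn1a, which encodes the cell cycle inhibitor p21, was called lower in cDC1 than in cDC2. It ran from 36.7 to 135 CPM in cDC1 and from 173 to 377 CPM in cDC2, and the ranges were apart (log2 difference -1.20, SE 0.16, edgeR adjusted p = 1.16e-05). It was higher in cDC1 in 0 of 11 libraries. Within the gate it went from 189 CPM in the cells with 2 gate UMIs to 56.8 CPM in those with 10 or more, and the cells with 1 UMI outside the gate stood at 278 CPM. Between the same 2 ends of the gate the alveolar macrophage list went from 6715 to 241 CPM, the plasmacytoid list from 778 to 28.9 CPM and the monocyte list from 700.4 to 60.1 CPM, and their part in Cdkn1a was not tested.

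Promoters of 4 genes are shown because Xcr1 and Clec9a define the cells, Ifi205 had the largest interferon-family difference and Cd207 holds the only joined AP-1 and IRF element in the marker windows searched. Each window runs from 250 bases before to 50 after a gene's start in RefSeq (GRCm38.p6), 5′ to 3′ on the gene's strand, and capitals mark motif matches on either strand. ISRE, the interferon-stimulated response element bound by IRF factors, was searched as GAAA, any 2 bases and GAAA again. AP-1, bound by the JUN and BATF families, was searched as TGANTCA. A joined form, GAAA followed directly by TGANTCA, is bound by BATF and IRF together and contains the AP-1 letters.

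Ifi205 (chr1:174031706-174032005, minus strand): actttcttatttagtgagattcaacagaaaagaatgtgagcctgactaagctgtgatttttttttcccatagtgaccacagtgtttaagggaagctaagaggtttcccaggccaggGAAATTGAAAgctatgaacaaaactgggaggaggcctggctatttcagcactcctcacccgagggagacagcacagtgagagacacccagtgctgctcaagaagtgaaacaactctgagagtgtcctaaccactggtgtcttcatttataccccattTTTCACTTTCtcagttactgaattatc
Cd207 (chr6:83677808-83678107, minus strand): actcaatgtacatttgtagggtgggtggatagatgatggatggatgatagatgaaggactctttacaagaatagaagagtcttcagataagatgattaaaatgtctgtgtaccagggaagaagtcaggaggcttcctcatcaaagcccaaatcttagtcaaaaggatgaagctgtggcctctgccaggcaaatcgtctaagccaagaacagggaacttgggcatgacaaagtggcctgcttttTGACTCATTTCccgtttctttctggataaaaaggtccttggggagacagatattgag
Xcr1 (chr9:123861980-123862279, minus strand): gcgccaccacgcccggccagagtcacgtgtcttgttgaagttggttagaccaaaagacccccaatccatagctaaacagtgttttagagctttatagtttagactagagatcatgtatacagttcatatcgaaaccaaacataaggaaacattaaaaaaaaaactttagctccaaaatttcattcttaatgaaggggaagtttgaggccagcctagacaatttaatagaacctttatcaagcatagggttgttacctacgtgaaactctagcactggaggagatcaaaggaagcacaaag
Clec9a (chr6:129408612-129408911, plus strand): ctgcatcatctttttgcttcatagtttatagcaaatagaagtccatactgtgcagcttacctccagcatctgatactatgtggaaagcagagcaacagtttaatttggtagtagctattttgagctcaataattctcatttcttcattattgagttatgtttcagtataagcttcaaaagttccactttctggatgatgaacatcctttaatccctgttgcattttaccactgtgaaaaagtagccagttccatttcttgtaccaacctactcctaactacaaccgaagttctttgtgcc

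In Ifi205 the ISRE letters begin at bases 117 and 274 of the window, and in Cd207 the joined AP-1-IRF letters begin at base 244. Xcr1 and Clec9a held no match, which says only that these letters are not in these windows. ISRE matches were present in 3.44% of all 32851 windows, in 6.18% of the 178 genes called higher in cDC1 with a window, in 6.90% of the 232 called lower and in 4.06% of the 4686 tested. AP-1 was present in 7.81% of all windows, in 5.62% of the genes called higher, in 9.91% of those called lower and in 6.06% of those tested. The joined form was present in 0.125% of all windows and in 0 of the 178. Of the other forms searched, the PU.1-IRF composite (GGAA, any 2 bases and GAAA) was present in 2.72% of all windows, 1.12% of the genes called higher, 5.17% of those called lower and 3.27% of those tested. An AP-1-IRF form with a spacer (TTTC, any 4 bases and TGANTCA, which contains the AP-1 letters) was present in 0.119% of all windows, and in 0 of the 178 and 0 of the 232.

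Mature dendritic cells were gated by Ccl22, Fscn1 and Ccr7 and are activated cells of any dendritic lineage. In 4 libraries, p21Het_2, p21Het_3, p21mTert_3 and p21mTertCD_1, both classes had at least 20 cells. Of 6673 genes tested, 641 were called higher in cDC1 (9.61%) and 761 lower (11.4%), 21% in either direction. In the costimulation and maturation list 23 of 24 tested genes were lower in cDC1 and 0 higher, with a median log2 difference of -3.45 against 0.02 over all genes tested. This list holds genes known from the state the mature gate selects.

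Relb, an NF-kappaB subunit of dendritic cell maturation, ran from 9.03 to 25.8 CPM in cDC1 of these libraries and from 342 to 477 CPM in mature cells (log2 difference -4.76, SE 0.191, edgeR adjusted p = 1.42e-07). Cd40, the receptor for T cell help, ran from 3.32 to 10.1 CPM against 54.4 to 116 CPM (-3.62, SE 0.246). Il12b, a subunit of IL-12, had medians of 5.79 and 723 CPM (-6.71, SE 0.249), Ccl5 7.54 and 4371 CPM (-8.73, SE 0.412) and Ccl17 516 and 3070 CPM (-2.89, SE 0.125). Il4i1, an amino acid oxidase, had medians of 2.96 and 599 CPM (-6.85, SE 0.434). Every one of these pairs of ranges was apart. Nudt17, a hydrolase gene, had 0 UMIs in cDC1 and 245 in mature cells, at least 229.1-fold lower in cDC1 against a floor of 3 UMIs over the group. Cd86, a ligand of CD28, had medians of 161 and 233 CPM, and its log2 difference of -0.71 did not reach 2-fold (edgeR adjusted p = 0.00724).

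In the class I list the chains H2-K1, H2-Q4, H2-Q6, H2-Q7 and B2m were called lower in cDC1 than in mature cells, and H2-D1 and H2-T23, at log2 differences of -0.96 and -0.45, did not reach 2-fold. H2-K1 had medians of 849 CPM in cDC1 and 2083 CPM in mature cells (log2 difference -1.39), and B2m, the class I light chain, 1395 and 3108 CPM (-1.30). H2-DMa and H2-DMb1, which load peptides onto class II, were 1.94 and 2.33 higher in cDC1 on the log2 scale, and H2-DMb2, of the same family, had a difference of -0.85, which did not reach 2-fold. In the class I list 3 of 32 tested genes were higher and 8 lower, and in the class II list 4 of 15 were higher and 2 lower, beside 9.61% of all tested genes higher and 11.4% lower.

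The cDC1 identity list had 27 of 37 tested genes higher and 3 lower, with a median of 2.00. Naaa had medians of 832 and 56.6 CPM, Tlr3 126.9 and 0 CPM, and Irf8 1224 and 514 CPM (log2 difference 1.13). The 3 lower genes were Nfil3 and Zbtb46, transcription factors, and Ly75. Of the cell cycle lists, 4 of 10 tested G2M genes and 5 of 14 tested S phase genes were higher and 0 lower, beside the same 9.61% and 11.4%. Cdkn1a was lower, by a log2 difference of -2.07 (SE 0.177, edgeR adjusted p = 1.13e-05), with 57.8 to 135 CPM in cDC1 and 285 to 399 CPM in mature cells. Siglech, with 449 UMIs in cDC1 and 0 in mature cells (at least 53.4-fold higher), and Ly6c2 (log2 difference 5.53) were also higher, so the plasmacytoid RNA described above moves with this contrast too, and its part was not tested. Without p21Het_2, 1107 genes were called against 1402.

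**Figure D4:**
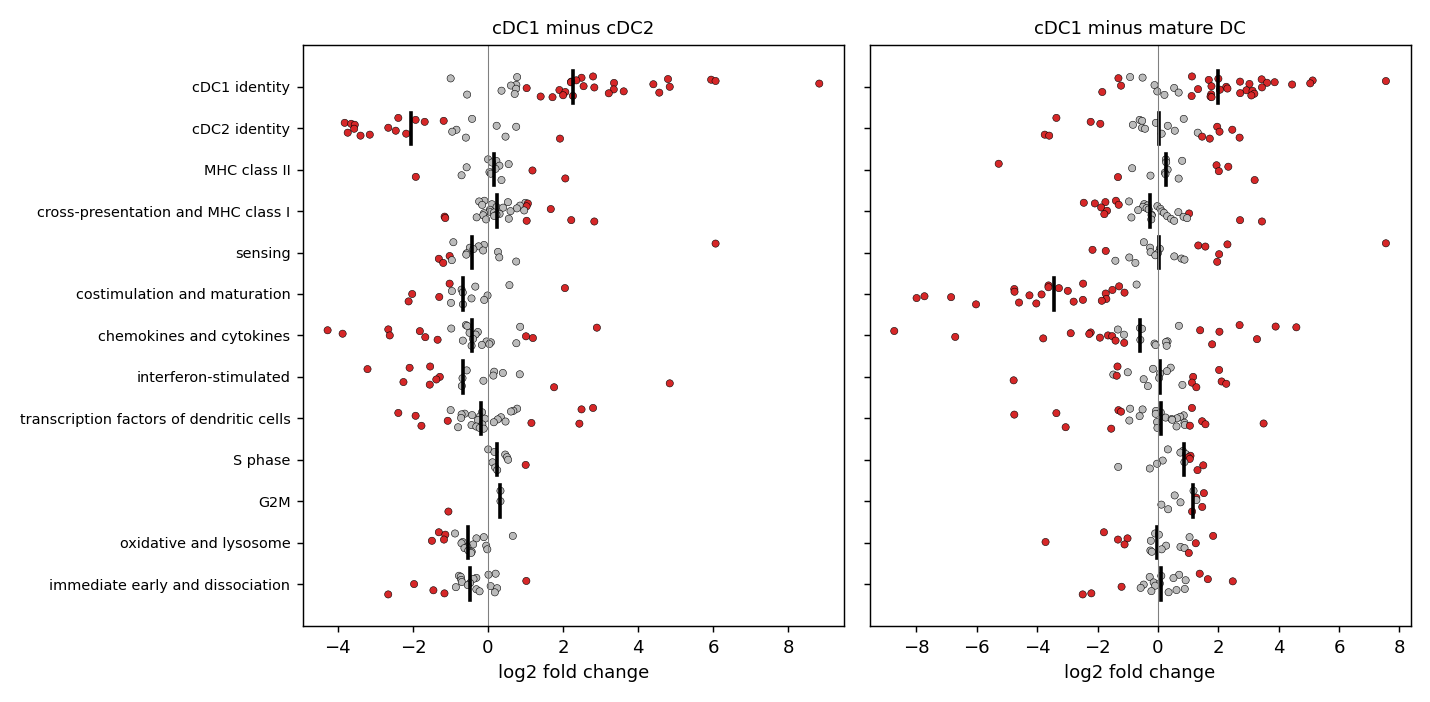
Log2 difference of each tested list member against cDC2 (left) and mature dendritic cells (right), red where called, with a line at the list median. The cDC1 identity list has medians of 2.26 and 2.00, and the costimulation list lies at -3.45 against mature cells.

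Cells with Xcr1 and Clec9a RNA that exceeded the Ccl22 and Fscn1 limit numbered 126, of which 23 had a Ccr7 UMI. The rule leaves them out of the cDC1, and they show what lies just past it. In the 10 libraries compared, Il12b was higher in them than in the cDC1 in 10 of 10, with means of 450.9 and 11.7 CPM. Ccl17 (3223 and 382 CPM), Cd40 (45.8 and 7.19 CPM), Relb (81.3 and 19.3 CPM) and Ccnd2, a D-type cyclin (551 and 170 CPM), were also higher in 10 of 10. Cdkn1a was higher in 9 of 10 (238 and 89.0 CPM). Irf8 was higher in only 1 of 10 (974 and 1256 CPM), and Siglech in 0 of 10 (16.4 and 125 CPM). These values carry no test, because the cells were chosen by genes of the same programme.

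Their share of all Xcr1 and Clec9a cells without Cd3e or Cd79a was 21.1% in WT, 8.33%, 8.88% and 14.1% for p21Het, 10.2%, 28.1%, 20.3%, 28.0% and 17.4% for p21mTert, and 12% and 14.3% for p21mTertCD. 4 of the 5 p21mTert libraries lay above every p21Het and p21mTertCD library. The mean difference of p21mTert from p21Het was 10.4 percentage points (2-sided exact permutation p = 0.0893, adjusted p = 0.321 over 9 tests) and from p21mTertCD 7.67 points (exact permutation p = 0.286, adjusted p = 0.54), so neither passed. This share was added after the data were seen.

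RNA of dividing cells was found in some cDC1. With each cell thinned to 1000 UMIs, 10.8% of cDC1 had a UMI of the 20 G2M genes, against 11% of cDC2, 6.09% of mature dendritic cells and 4.55% of neutrophils, which do not divide and stand for background. The median cell of these classes had 16491, 13195, 14616 and 4156 UMIs before thinning. Without thinning, 28.1%, 29.4%, 23.5% and 4.37% had 2 or more such UMIs. In the 9 libraries with at least 5 cells of each kind, the 119 cDC1 with 3 or more G2M UMIs were set against the 291 with none. These sets also differed in RNA of other cells: over all libraries the plasmacytoid list stood at 37.6 CPM in the cells with 3 or more G2M UMIs and 426 CPM in those with none, and the alveolar macrophage list at 865 and 1688 CPM, and its part in the differences was not tested. Stmn1, a tubulin-binding protein of dividing cells (478 and 16.5 CPM), Mcm5, of the replication helicase (92.8 and 4.27 CPM), Pcna, Tyms and Rrm2 were higher in 9 of 9. Irf8 was higher in 5 of 9 (1256 and 1266 CPM) and Itgae in 5 of 9 (290 and 261 CPM).

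Per library, the thinned share was 10.0% in WT, 4.55%, 13.6% and 4.92% for p21Het, 15.9%, 15.2%, 18.2%, 10.2% and 0% for p21mTert, and 12.1% and 6.94% for p21mTertCD. The groups overlapped. The means were 11.9% ± 7.27 (SD, n = 5) for p21mTert, 9.53% ± 3.66 (SD, n = 2) for p21mTertCD and 7.70% ± 5.14 (SD, n = 3) for p21Het, and the exact permutation p was 0.429 for p21mTert against p21Het, 0.762 against p21mTertCD and 0.6 for p21mTertCD against p21Het. Single libraries moved these differences by over 1.5 times. The difference of p21mTert from p21Het, 4.196 percentage points, was 7.17 without p21mTert_5 or 7.16 without p21Het_2, and 2.62 without p21Het_1 or p21mTert_3. Thinning was a single random draw. By 2 or more G2M UMIs without thinning, p21mTert_5 stood at 18.4%, and the difference of p21mTert from p21Het was 0.886 points (exact permutation p = 0.804). With thinning, the difference of p21mTert from p21mTertCD was 2.36 points, and it ran from 5.34 without p21mTert_5 to -0.226 without p21mTertCD_2. For p21mTertCD against p21Het it was 1.83 points, and it ran from 4.80 without p21Het_2 to -0.756 without p21mTertCD_1.

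Between genotypes, Cdkn1a in cDC1 was 102 CPM in WT, 112, 83.5 and 135 CPM for p21Het, 104, 58.4, 85.1, 124 and 36.7 CPM for p21mTert, and 57.8 and 102 CPM for p21mTertCD. The groups overlapped, and none of the 3 contrasts was called (log2 differences of -0.31 for p21mTert minus p21Het, 0.02 for p21mTert minus p21mTertCD and -0.32 for p21mTertCD minus p21Het). The signs turned with the gate. With 5 or more gate UMIs p21mTert minus p21Het was 0.46 and p21mTertCD minus p21Het 0.19, and without the cells above 0.3% of another type the first was 0.21, none of them called. Tert, the catalytic subunit of telomerase, had 0 UMIs in the WT cDC1, which allows up to 8.38 CPM by an exact 95% interval that covers counting error only, and 3, 4 and 2 UMIs over all libraries of p21Het, p21mTert and p21mTertCD. At this depth no difference in Tert was detectable in cDC1.

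Few genes were called between genotypes. Of 8082 genes tested by edgeR's quasi-likelihood test over the 10 libraries of the 3 groups, 1 (0.0124%) was called at an adjusted p under 0.05 in p21mTert minus p21Het, 0 (0%) in p21mTert minus p21mTertCD and 0 (0%) in p21mTertCD minus p21Het. An unadjusted p under 0.05 was reached by 357, 245 and 278 genes, and DESeq2 called 3, 4 and 3. On simulated counts with 200 changed genes, 48.4%, 38.5% and 29.9% of 2-fold changes and 97.9%, 97.8% and 83.5% of 4-fold changes were recovered. Each simulated gene had the typical spread of genes at its level, so real genes with more spread can be missed even beyond 4-fold. Gm42031 (log2 difference 2.73 in p21mTert minus p21Het) and Ccl2 (2.75 in p21mTertCD minus p21Het) were not called in the edgeR fit above.

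The called gene was Gm47283, a predicted gene on chrY:90784738-90816464 (GRCm38). It stood at 81.8 CPM in WT, 39.1, 17.6 and 19.1 CPM for p21Het, 95.4, 67.2, 120.1, 73.2 and 80.4 CPM for p21mTert, and 27.1 and 30.1 CPM for p21mTertCD. The p21mTert and WT libraries were all above the p21Het and p21mTertCD libraries. The log2 difference of p21mTert from p21Het was 2.01 (SE 0.266, edgeR adjusted p = 0.0314, DESeq2 adjusted p = 1.75e-07), and from p21mTertCD 1.58 (edgeR adjusted p = 0.277, DESeq2 adjusted p = 0.0059). In the later deposit alone the first of these was 2.29 (adjusted p = 0.0318). The call was lost, at adjusted p of 0.0664 to 0.281, when any of p21mTert 1, 2, 4 or 5, p21Het 2 or 3, or either p21mTertCD library was left out. Over all passing lung cells it stood at 50.7 to 102 CPM in p21mTert, 53.2, 14.6 and 22.4 CPM in p21Het, 25.7 and 44.8 CPM in p21mTertCD and 81.5 CPM in WT. Of p21Het and p21mTertCD only p21Het_1 reached the p21mTert range, so most of this separation was not particular to cDC1. Whether reads of near-identical copies were counted to it was not tested.

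Gm42031, Vsig8 and Ccl2, among the 5 genes of smallest p in a contrast, separated groups without a call by edgeR. DESeq2 called Gm42031 and Ccl2, and its counts above also hold Vsig8, which had 0 UMIs outside p21mTertCD. Gm42031, a long noncoding RNA at chr8:85125872-85132289, stood at 124, 123, 41.4, 78.0 and 86.0 CPM in p21mTert, 4.69, 19.2 and 12.5 CPM in p21Het, 2.71 and 15.8 CPM in p21mTertCD and 18.2 CPM in WT. All p21mTert libraries were above all others, with a log2 difference from p21Het of 2.73 (SE 0.455, edgeR adjusted p = 0.17). With 5 or more gate UMIs it was 2.72 and called (adjusted p = 0.0332), and without the cells above 0.3% of another type it was also called (adjusted p = 0.0371). Of all 23 alternatives for this contrast, 5 gave a call and 18 did not. Over all passing lung cells Gm42031 stood at 33.8 to 83.5 CPM in p21mTert and 3.69 to 11.9 CPM elsewhere, so this separation was not particular to cDC1. Vsig8, an immunoglobulin domain gene at chr1:172555938-172563717, had 24 and 36 UMIs in the p21mTertCD cDC1 and 0 in every other library, at least 34.8-fold higher than in p21Het and at least 33.6-fold higher than in p21mTert against a floor of 3 UMIs over the group. It passed the filter on low counts only through p21mTertCD, so no test is given for it. Over all lung cells Vsig8 had 510 and 328 UMIs in p21mTertCD and 6 to 35 elsewhere, so cDC1 were not alone in it.

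Ccl2, a chemokine that draws monocytes (chr11:82035571-82037453), stood at 39.7 and 88.9 CPM in p21mTertCD, 3.13, 7.10 and 19.1 CPM in p21Het, 11.9, 6.34, 11.2, 11.7 and 25.4 CPM in p21mTert and 31.8 CPM in WT. Both p21mTertCD libraries were above all others. The log2 difference from p21Het was 2.75 (SE 0.486, edgeR adjusted p = 0.338). With 5 or more gate UMIs it was 3.75 and called (adjusted p = 0.0205), and without the cells above 0.3% of another type 3.63 and called (adjusted p = 0.0118). Of all 23 alternatives for this contrast, 6 gave a call and 17 did not. The monocyte marker list in these cDC1 was at 251 to 302 CPM in p21mTertCD and 154 to 370 CPM in p21Het, and the alveolar macrophage list at 745 to 1722 CPM and 1411 to 2857 CPM.

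S100a6, a calcium-binding protein among the genes of smallest p, also separated groups without a call by edgeR. It stood at 1080, 763 and 940 CPM in p21Het, 690, 590, 635, 570 and 650 CPM in p21mTert, 459 and 607 CPM in p21mTertCD and 965 CPM in WT, and every p21Het library was above every p21mTert and p21mTertCD library. The log2 difference was -0.67 for p21mTertCD minus p21Het (SE 0.143, edgeR adjusted p = 0.844, DESeq2 adjusted p = 0.0202) and -0.46 for p21mTert minus p21Het (SE 0.111, adjusted p = 1.00). Igfbp7, a secreted protein abundant in endothelium, stood at 43.8, 51.0 and 1.66 CPM in p21Het, where the endothelial marker list was at 183, 56.8 and 22.4 CPM. Its log2 difference for p21mTert minus p21Het was -4.08. It passed the filter on low counts only through p21Het, so no test is given for it, though the DESeq2 counts above hold it. In p21mTert it was 0.976 to 2.82 CPM, with that list at 17.9 to 138 CPM, and the part of endothelial RNA in it was not tested. Inhba, the activin subunit, stood at 101 CPM in p21mTertCD_1 and 1.51 CPM in p21mTertCD_2, so its log2 difference of -6.44 for p21mTert minus p21mTertCD rests on 1 library (adjusted p = 0.999). Of the other genes named by p, Rhoc, a small GTPase, and Gm6377, a predicted gene, had log2 differences of -1.33 and 0.69 in p21mTert minus p21Het (edgeR adjusted p = 0.325 and 0.385), and Klf7, a zinc finger factor, -1.02 in p21mTertCD minus p21Het (adjusted p = 1.00).

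**Figure D5:**
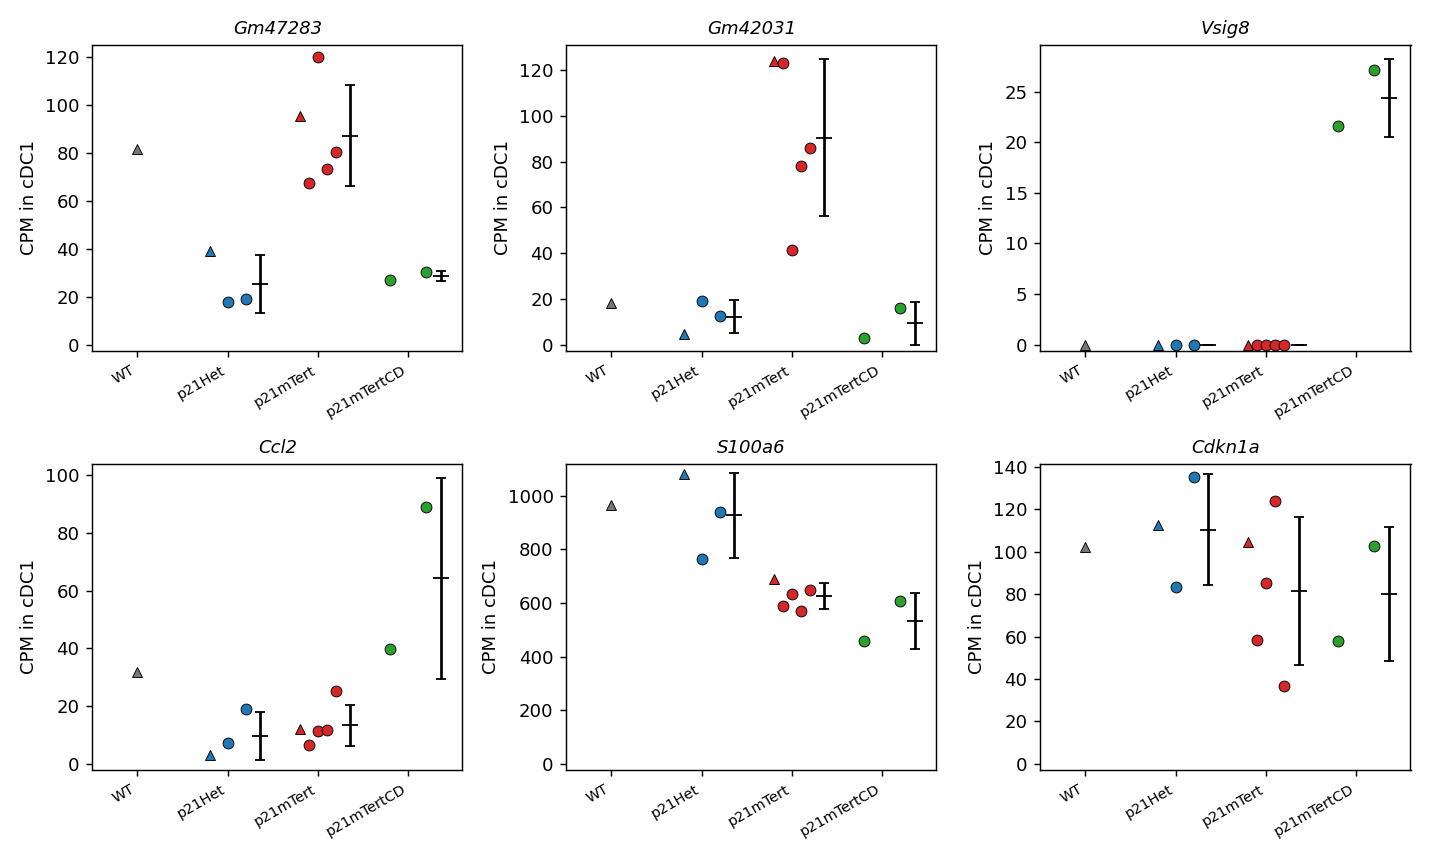
CPM per library of Gm47283, Gm42031, Vsig8, Ccl2, S100a6 and Cdkn1a in cDC1 by genotype. Gm42031 lies at 41.4 CPM or more in all 5 p21mTert libraries and at 19.2 CPM or less in the others, while the groups overlap for Cdkn1a.

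In the edgeR fit over the gate of 2 or more UMIs no member of any list was called in a genotype contrast. DESeq2 called 1 member, Ccl2, in p21mTert minus p21mTertCD (adjusted p = 0.0324) and p21mTertCD minus p21Het (adjusted p = 0.0114), beside the edgeR calls of it given above. In p21mTert minus p21Het the 39 tested cDC1 identity genes had a median log2 difference of 0.05 with 22 above 0. In p21mTert minus p21mTertCD the median was -0.27 with 8 above 0, and in p21mTertCD minus p21Het 0.29 with 32 above 0. Over all genes the medians lay between -0.01 and 0.01. With 5 or more gate UMIs the 3 medians of the cDC1 identity list were -0.01, -0.15 and 0.11, nearer to 0 than at 2 or more in all 3 contrasts, and the cause was not tested. The 23 tested cDC2 identity genes had medians of 0.05, 0.43 and -0.45, and with 5 or more gate UMIs the 21 tested had medians of 0.03, 0.14 and -0.32. Without the cells above 0.3% of another type the medians in the last 2 contrasts were -0.25 and 0.24 for the cDC1 identity list and 0.47 and -0.59 for the cDC2 identity list, so the move toward 0 was not seen under that setting for the cDC2 list and was small for the cDC1 list. These contrasts share libraries and are not independent of each other.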

How the data were processed

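UMIs of single cells were measured in 11 lung libraries on the 10x Genomics V2 3′ chemistry, per the labels' protocols. The deposited files hold raw UMI counts of 31053 genes per barcode, mapped to mm10 and counted by Cell Ranger, per the submitters' processing notes. The filter and gene limits in the text were applied here to those counts; doublets were not called. cDC1 UMIs were summed per library (at least 20 cells). Genes between genotypes were tested with edgeR 4.0.16 (R 4.3.3; filterByExpr, TMM, glmQLFit, glmQLFTest) over p21Het, p21mTert and p21mTertCD together, and between classes with the library as a block. The adjusted p is Benjamini-Hochberg over all genes tested, with a limit of 0.05 and, between classes, 2-fold. DESeq2 1.42.0 and other filters, gates and left-out libraries were alternatives. Shares were compared by 2-sided exact permutation tests over libraries (Python 3.11.15, scipy 1.17.1), adjusted over 9 tests. Comparing 5 libraries with 3 can give a p no lower than 0.0179, with 2 no lower than 0.0476, and 2 with 3 no lower than 0.1. The scripts were tested on simulated data with 200 changed genes. CPM is per 1000000 UMIs of the summed cells, so its error covers the libraries' depth of 440235 to 2393809 cDC1 UMIs. Counts at the 3′ end do not scale with gene length, and levels are compared within a gene only. Nearby genes, antisense pairs and close paralogs were taken as counted. Coordinates are GENCODE's for GRCm38.

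Named genes were Cdkn1a, Tert and the list members with a call or a role in the text. For genotypes they were called genes with at least 20 CPM or, where fewer than 3 were called, the 5 of smallest p. For classes they were up to 12 called genes in each direction by fold, with at least 100 CPM and the same direction in every library. A gene that the genotype rule names is not reported here. The members and lists were chosen with earlier results of these data known.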

Additional observations from a re-analysis of the deposited data

Results flagged for a closer look

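Inhba, which encodes an activin subunit, was at 2.98 CPM in cDC1 of p21mTert_1 and at 0 in the other 4 p21mTert libraries, so that 1 sample stood far from the rest of its group. That level is 2 UMIs, and with the other libraries at 0 any single count above 0 would stand out in this way, so it shows nothing beyond those 2 UMIs. The same search covered 23 groups of values, and chance alone marks about 1 group in 20.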

How the results depend on the processing

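Alternatives are percentage points for shares, log-odds where the logit scale is named, and log2 differences for genes. For the cDC1 share, p21mTert minus p21Het was -0.636 (exact permutation p = 0.0476) without p21Het_1, and leaving out each library gave -0.636 to -0.0865. It was -0.0105 (exact permutation p = 0.875) without cells with 3 or more UMIs of another type, -0.179 (p = 0.321) after thinning, -0.228 (p = 0.321) at 5 or more gate UMIs and -0.497 (p = 0.946) among the 3 gated dendritic classes. For p21mTert minus p21mTertCD, the exact permutation p was above 0.05 with -0.325 among Ptprc-positive cells (p = 0.238), -2.51 among the 3 gated dendritic classes (p = 0.667), -0.198 with 1 or more gate UMI after thinning (p = 0.0952), -0.380 on the logit scale (p = 0.0952) and -0.339 in the later deposit (p = 0.0667). It was 0.0191 without cells with 3 or more UMIs of another type, and -0.499 to -0.219 leaving out each library. For p21mTertCD minus p21Het, the sign turned to 2.01 among the dendritic classes, 0.00703 at 3 or more gate UMIs, 0.0189 after thinning, 0.0333 on the logit scale, 0.0403 without cells over 0.3% of another type, 0.0998 at 5 or more and 0.00266 with no upper UMI limit, and the range leaving out each library was -0.277 to 0.272. The cycling share turned to -0.0196 on the logit scale for p21mTert minus p21mTertCD (-0.226 to 5.34 leaving out each library) and to -2.05 with 2 or more unthinned G2M UMIs for p21mTertCD minus p21Het (-0.756 to 4.80). At 5 or more gate UMIs the latter was 3.16 against 1.83 (exact permutation p = 0.7 and 0.6), and the share above the Ccl22 and Fscn1 limit differed by 0.312 against 2.71 (exact permutation p = 1 and 0.3). The cause was not tested.

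Called genes in the 3 genotype contrasts (1, 0 and 0; in the order p21mTert minus p21Het, p21mTert minus p21mTertCD, p21mTertCD minus p21Het) came to 3, 4 and 3 with DESeq2 and 101, 59 and 90 with no filter on low counts. In p21mTert minus p21Het they were 0 in the fit over 2 groups, with no upper UMI limit or without cells with a G2M UMI, 2 at 5 or more gate UMIs and 2 without cells over 0.3% of another type. In p21mTertCD minus p21Het they were 1 at 3 or more gate UMIs, 1 at 5 or more and 1 without cells over 0.3% of another type. Leaving out each library gave 0 to 3, 0 to 1 and 0 to 2. Between cDC1 and cDC2, 542 became 1354 with no filter and 500 to 694 otherwise, and between cDC1 and mature cells 1402 became 1107 to 1996.

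Libraries whose titles give the same replicate number correlated at 0.128, -0.0418, 0.0219 and -0.291 and are taken to share only a number. The first-deposit libraries have no number in their titles and were left out of this check and of the block. With the replicate block 12 genes were called in p21mTert minus p21Het. In this fit p21mTert_4, p21mTert_5 and p21mTertCD_1 share their number with no other library, and the block fits each of them alone. The contrast therefore rests on replicates 2 and 3 of its groups, with little left to estimate the spread. Contrasts with p21mTertCD rest on p21mTertCD_2 alone within that group, so only effect sizes are given for them. The 12 include 4 list members lower in p21mTert than in p21Het, Marco (-5.10) and Chil3 (-1.78) of the alveolar macrophage list and Cd63 (-2.44) and Ctsd (-1.77) of the lysosome list. Ccl2 was -3.89 for p21mTert minus p21mTertCD and 3.51 for p21mTertCD minus p21Het. With the block Cdkn1a was -0.71 for p21mTert minus p21mTertCD and 0.26 for p21mTertCD minus p21Het.

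Of single genes, all 570 alternatives of the 48 class results named by fold kept direction and call, counting only fits that gave the gene an adjusted p. F13a1 had 14 such fits and Ccl7 13, against 16 for the other named genes of the cDC2 contrast. Ly6c2 had 7 against 8 in the contrast with mature cells. With both classes held to cells not over 0.3% of another type, F13a1 and Ccl7 did not pass the filter on low counts. Naming the class results required a call and the same direction in every library, so their stability was partly set in advance. Of 399 alternatives with an adjusted p over 18 genotype results, 343 kept direction and call, 11 lost the call, 32 gained it and 13 turned sign, all 13 of Cdkn1a. For p21mTert minus p21Het it was 0.0411, 0.21 and 0.46 at 3 or more gate UMIs, without cells over 0.3% of another type and at 5 or more. For p21mTert minus p21mTertCD it was -0.0335 with no filter, -0.0139 with a term for the deposit and -0.0526 in the later deposit, and leaving out each library gave -0.305 to 0.444, below 0 without p21mTert 1, 3 or 4 or p21mTertCD 1. For p21mTertCD minus p21Het it was 0.19 at 5 or more. The filter on 3 or more UMIs of another type left 61 cells and no library with 20, so gene and cycling results were not run with it.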
